A study of Mus musculus with 44 samples.

Results

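The windows described here are the start sites of mouse genes in HPC7 cells that carried wild-type Snai1, compared between H3K4me1 and IgG chromatin immunoprecipitates. HPC7 is a mouse haematopoietic progenitor line that depends on stem cell factor, which the labels give as 100 ng/ml mSCF. The members were chosen by column and by depth: all windows with a mean IgG count of at least 1 in the 2 IgG libraries were taken, which left 26827 of the 27095 windows of the deposited table after rows with equal counts were counted once. The comparison used 5 of the 44 samples of the series, 3 of H3K4me1 and 2 of IgG. All 5 came from cells transduced with an MSCV-IRES-GFP retrovirus that held the cDNA of wild-type Snai1, sorted for GFP about 1 week later and expanded. The added Snai1 was therefore shared by both sides of the comparison, and empty-vector cells and cells with mutant Snai1 had no IgG library in the table. The cells are a pool of transduced cells of 1 line, and the labels do not say whether the numbered replicates were separate transductions or cultures, so the p-values measure the spread between these libraries. Counts in the table were made around transcription start sites, 1 window per Entrez gene. Its name gives 5 kb around the start, without saying whether that is the whole width or each side, and it holds no coordinates.

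H3K4me1 is monomethylation of lysine 4 of histone H3. It is written mainly by the Kmt2c and Kmt2d methyltransferases, removed by the demethylase Lsd1 (gene Kdm1a), and is best known as the mark of enhancers, both active ones and those held ready for later use. At active promoters rich in CpG dinucleotides it flanks the start site, whose centre carries di- and trimethylation, while genes that a cell lineage does not use often lack all of them. Snai1 is a zinc-finger repressor that recruits Lsd1, and Gfi1 and Gfi1b are blood repressors of the same N-terminal family. An IgG library is an immunoprecipitate with a non-specific antibody, and its reads give the background against which a mark is read.

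The promoters below show the kinds of start site that the comparison separated, and are printed because their base composition is set beside the levels further on. Each is the 250 bases before the annotated start, from RefSeq on GRCm38.p6, 5′ to 3′ on the gene's strand, with CpG dinucleotides in capitals. Ptgir (chr7:16906240-16906489, plus strand), Prtn3 (chr10:79879417-79879666, plus), Mpo (chr11:87793534-87793783, plus), Gp9 (chr6:87777820-87778069, plus) and Ptgds (chr2:25469750-25469999, minus) had high H3K4me1 on sequences with 5, 4, 2, 2 and 2 CpG. Most genes with high H3K4me1 had more CpG than these, as given further on. Zfpm1 (chr8:122281891-122282140, plus) and Bcl11a (chr11:24080445-24080694, plus) are blood regulators with 28 and 16 CpG. Klf4 (chr4:55532476-55532725, minus) and Hand2 (chr8:57320733-57320982, plus) had low H3K4me1 on 32 and 15 CpG, and Olfr1101 (chr2:86989175-86989424, minus) had among the lowest, on a sequence without a CpG.
Ptgir: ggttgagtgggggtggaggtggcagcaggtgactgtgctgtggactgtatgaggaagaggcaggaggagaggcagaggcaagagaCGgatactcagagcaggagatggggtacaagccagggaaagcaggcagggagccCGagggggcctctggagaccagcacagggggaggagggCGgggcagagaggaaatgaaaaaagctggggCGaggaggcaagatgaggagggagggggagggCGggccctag
Prtn3: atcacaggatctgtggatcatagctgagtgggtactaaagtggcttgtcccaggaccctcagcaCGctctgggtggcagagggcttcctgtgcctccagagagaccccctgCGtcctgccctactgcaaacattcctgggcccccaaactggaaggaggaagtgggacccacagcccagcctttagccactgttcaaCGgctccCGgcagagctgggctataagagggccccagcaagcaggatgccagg
Mpo: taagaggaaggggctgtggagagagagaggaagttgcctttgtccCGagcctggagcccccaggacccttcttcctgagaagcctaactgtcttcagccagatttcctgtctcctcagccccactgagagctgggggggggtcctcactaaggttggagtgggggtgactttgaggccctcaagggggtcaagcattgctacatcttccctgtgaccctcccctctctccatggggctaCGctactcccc
Gp9: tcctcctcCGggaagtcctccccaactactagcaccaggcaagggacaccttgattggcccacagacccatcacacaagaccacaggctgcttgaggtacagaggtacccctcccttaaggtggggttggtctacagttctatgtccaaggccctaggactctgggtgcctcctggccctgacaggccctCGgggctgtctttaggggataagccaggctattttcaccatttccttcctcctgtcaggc
Ptgds: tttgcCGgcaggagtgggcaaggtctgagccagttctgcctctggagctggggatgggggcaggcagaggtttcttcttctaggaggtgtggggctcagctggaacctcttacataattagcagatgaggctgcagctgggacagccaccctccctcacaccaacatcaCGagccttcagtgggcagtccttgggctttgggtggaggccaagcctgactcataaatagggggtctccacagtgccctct
Zfpm1: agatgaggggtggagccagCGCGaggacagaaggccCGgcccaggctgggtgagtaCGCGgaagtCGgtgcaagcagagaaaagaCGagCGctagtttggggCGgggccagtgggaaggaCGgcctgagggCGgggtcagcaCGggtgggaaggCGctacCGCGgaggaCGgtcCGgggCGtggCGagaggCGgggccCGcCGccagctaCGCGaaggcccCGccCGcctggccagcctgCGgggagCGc
Bcl11a: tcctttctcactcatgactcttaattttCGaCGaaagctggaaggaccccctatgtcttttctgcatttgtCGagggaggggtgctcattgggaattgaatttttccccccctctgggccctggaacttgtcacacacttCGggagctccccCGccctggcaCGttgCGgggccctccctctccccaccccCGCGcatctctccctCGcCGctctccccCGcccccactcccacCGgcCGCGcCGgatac
Klf4: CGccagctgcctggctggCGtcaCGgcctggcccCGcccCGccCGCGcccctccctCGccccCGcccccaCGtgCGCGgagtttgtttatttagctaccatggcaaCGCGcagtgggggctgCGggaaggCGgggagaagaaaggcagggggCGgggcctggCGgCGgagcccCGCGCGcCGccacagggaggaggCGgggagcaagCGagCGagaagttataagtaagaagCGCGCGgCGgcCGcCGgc
Hand2: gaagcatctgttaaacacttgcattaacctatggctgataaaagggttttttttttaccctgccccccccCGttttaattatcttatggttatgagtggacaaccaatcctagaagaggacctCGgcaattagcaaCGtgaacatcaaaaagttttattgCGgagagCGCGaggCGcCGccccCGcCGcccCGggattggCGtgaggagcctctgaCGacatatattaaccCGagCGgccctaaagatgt
Olfr1101: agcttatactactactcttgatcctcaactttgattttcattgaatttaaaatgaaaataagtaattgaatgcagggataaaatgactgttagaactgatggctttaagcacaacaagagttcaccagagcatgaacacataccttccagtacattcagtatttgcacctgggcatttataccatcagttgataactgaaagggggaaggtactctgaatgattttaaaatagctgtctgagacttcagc

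The 5 libraries held 7837122, 5051776 and 5404568 reads in windows for H3K4me1 and 3355479 and 2714255 for IgG, and the median window held 192, 116 and 127 reads in H3K4me1 and 128 and 104 in IgG. Levels are given as CPM, the count divided by the library's total and scaled to the same size in each library. H3K4me1 replicates 2 and 3 differed by little more than counting error, with a variance 1.18 times that of counting, whereas replicate 1 differed from them by 9.98 and 9.49 times and the IgG libraries from each other by 5.54 times. Mitochondrial windows took 0.239% of reads in IgG replicate 1 and 1.85% in replicate 2, against 0.0206 to 0.157% in H3K4me1. The line's own markers were checked over the windows. Of 11 haematopoietic progenitor markers, 9 were higher in H3K4me1 than in IgG and 1 was lower (Erg), and their summed level was 1080 to 1254 CPM in H3K4me1 against 480.4 and 611.2 CPM in IgG. All 6 fibroblast markers and all 4 epithelial markers were lower, with summed levels of 62.8 to 82.3 CPM against 228.3 and 271.2 CPM, and of 40.6 to 76.4 CPM against 148.8 and 199.7 CPM. Over all windows 27% were higher and 48.5% lower. These directions rest on the column totals. Scaling to the olfactory and vomeronasal receptor windows, given below, moved the median of all windows up by 2.60. The fibroblast and epithelial medians were -1.97 and -1.86 on the log2 scale. Endothelial, T cell, B cell and macrophage markers were mixed, with medians of -0.16, 0.18, 0.36 and 0.36 on the log2 scale, and no defining marker of these lists was at 0 in an H3K4me1 library.

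Gene start windows of HPC7 cells fell into a high and a low class of H3K4me1 over IgG, whereas their IgG level varied far less. The log2 ratio of H3K4me1 over IgG had 1 peak of 2252 windows between -3.25 and -3 and another of 2246 windows between 0.25 and 0.5, with 573 windows in the shallowest bin between them, from -1.5 to -1.25. Its median was -0.52 and its quartiles were -2.70 and 0.51. The receptor genes of smell and pheromones (Olfr, Vmn1r and Vmn2r), which blood cells do not use, had a median of -3.10 over their 1465 windows. Of these 1415 were lower than IgG, 1403 of them by a log2 of at least 1, 40 did not pass and 10 were higher. Their median level was 2.55, 2.18 and 2.96 CPM in the 3 H3K4me1 libraries and 17.3 and 28.4 CPM in the 2 IgG libraries. Over all windows the medians were 25, 23.6 and 24.1 CPM in H3K4me1 and 38.4 and 38.3 CPM in IgG, so that the all-window and the receptor medians stood far apart in H3K4me1 and closer together in IgG.

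**Figure D1:**
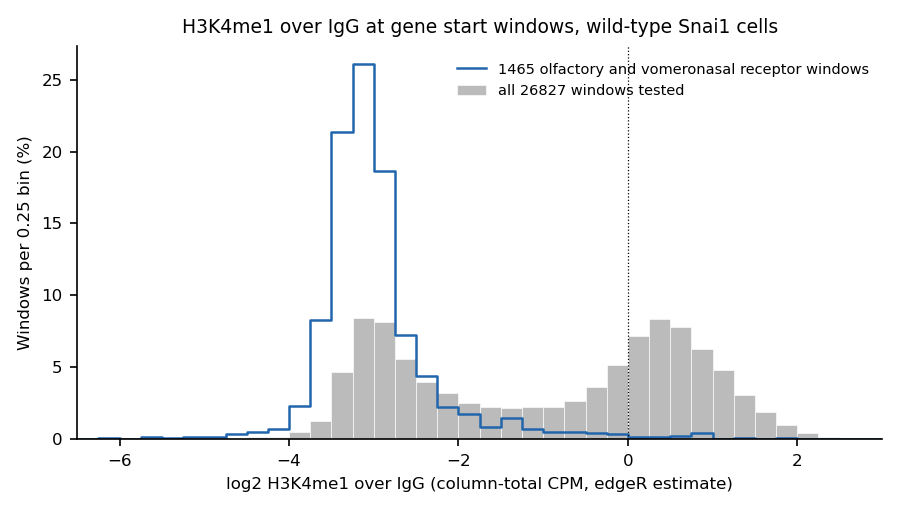
Share of windows (vertical axis, % per 0.25 bin) by log2 of H3K4me1 over IgG (horizontal axis), for the 26827 windows tested (grey bars) and the 1465 olfactory and vomeronasal receptor windows (blue line). All windows form 2 peaks on either side of a shallow stretch near -1.5, and the receptor windows stand in the lower peak; with libraries scaled to these receptor windows the whole distribution moves up by 2.60 and most windows stand above 0.

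With edgeR's quasi-likelihood test on column totals, 20243 windows (75.5%) passed at an adjusted p of 0.05, of which 7230 were higher in H3K4me1 (27%) and 13013 were lower (48.5%). A log2 difference of at least 1, a 2-fold change, was reached by 3025 windows higher (11.3%) and 11904 lower (44.4%). All 3 H3K4me1 libraries stood above both IgG libraries in 8533 windows (31.8%) and below both in 14023 (52.3%). The side of 0 rests on the scaling. When libraries were scaled to the receptor windows, the median of all windows moved by 2.60, and 16268 windows (60.6%) were higher and 763 (2.84%) lower. With TMM factors it moved by 0.52, and 11264 (42%) were higher and 11515 (42.9%) lower. Groups of genes are therefore given also by their distance from the median of all windows. A scaling moves all windows nearly together, so this distance hardly changes by construction, and its stability under scaling is no support. A window that stands "lower" is one with less H3K4me1 per library read than IgG, not one shown to lose the mark.

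Among single windows, the 12 with the largest log2 ratio among named genes joined genes of myeloid and lymphoid cells with genes of general function. Windows could enter this ranking only if they passed and their libraries did not overlap, so neither property is a result about them. The window of Ptgir, the prostacyclin receptor, held 290.7, 285.8 and 279.9 CPM in H3K4me1 and 48.6 and 32.1 CPM in IgG. All 3 H3K4me1 values lay far above both IgG values, and the ratio was 2.82 on the log2 scale (SE 0.28, 7.04-fold, edgeR adjusted p = 1.1e-05), the highest of all windows tested. Prtn3, the neutrophil serine protease proteinase 3, held 211.3, 232.6 and 246.3 CPM against 39.0 and 35.4 CPM, a log2 of 2.62 (SE 0.23). Siglecf, a sialic acid-binding receptor of eosinophils, held 202.2, 231.0 and 240.4 CPM against 45.0 and 34.6 CPM, a log2 of 2.49 (SE 0.24). Csk, the kinase that holds Src-family kinases in check, held 242.7, 217.9 and 221.3 CPM against 52.5 and 28.4 CPM, a log2 of 2.48 (SE 0.28). Zmynd8, a reader of modified histones, had the highest H3K4me1 level of these 12, 349.7, 370.0 and 361.5 CPM, against 78.4 and 56.4 CPM in IgG. The others were Rpl6l (2.57), B9d2 (2.53), Slc17a4 (2.52), Trbv1 (2.46), Smdt1 (2.41), Scarletltr (2.40) and Trbv17 (2.38). Trbv1 and Trbv17 are variable segments of the T cell receptor beta locus, and Scarletltr is a long non-coding RNA of erythroid cells. Rpl6l is a near copy of Rpl6, and the Smdt1 window has the start of Pheta2 within 5 kb, so their reads may be shared. In the empty-vector and mutant cells, which have no IgG of their own, the Ptgir window held 285.1, 299.2 and 290.9 CPM and 362.4, 220.4 and 245.1 CPM of H3K4me1.

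At the other end, the 12 lowest windows among those with at least 20 IgG reads on average, groups that did not overlap and a gene name that is not a predicted one were receptor genes, genes of glands and skin, and genes of the X chromosome. Ezhip, an inhibitor of Polycomb repressive complex 2, held 1.40, 0.594 and 0 CPM in H3K4me1 against 15.8 and 17.3 CPM in IgG, a log2 of -4.43 (SE 0.59, adjusted p = 4.4e-05). Rhox5, a homeobox gene of the reproductive tract, was at -4.21. Scgb1b12 (a secretoglobin) stood at -4.31, Krtap16-3 (a hair keratin-associated protein) at -4.08 and Obp1b (an odorant-binding protein) at -4.08. The other 7 were Olfr1101, Vmn1r60, Olfr1046, Olfr898, Olfr1136, Olfr1303 and Olfr937, from -4.36 to -4.08. Olfr1101 held 1.15, 1.58 and 1.29 CPM against 21.5 and 33.9 CPM. All 12 stayed lower when the libraries were scaled to the receptor windows. They were chosen for the lowest ratios and that scaling moved the median by 2.60, so this is no separate support. The 7 receptor genes among them also belong to the windows used for the scaling. How reads that match several copies of a receptor gene were counted is not given in the sources used here.

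The factors that define blood stem and progenitor cells carried H3K4me1 above the general level of windows. Of 29 progenitor transcription factors, 17 were higher than IgG and 4 were lower, where 27% and 48.5% of all windows were, and their median was 0.72, or 1.24 above the median of all windows. Genes of general use stood about as far above that median: housekeeping genes by 1.23, cell cycle genes by 1.24 and ribosomal protein genes by 1.17. Gata2, a zinc-finger factor needed by stem cells, held 178.6, 137.6 and 130.3 CPM in H3K4me1 and 62.9 and 29.8 CPM in IgG. The groups did not overlap although the IgG libraries differed from each other by a wide margin, and the log2 was 1.67 (SE 0.29, adjusted p = 0.000313). Gfi1b held 159.4, 151.2 and 146.0 CPM against 54.2 and 46.8 CPM, with a log2 of 1.59 (SE 0.19, adjusted p = 2e-05). Its relative Gfi1 held 76.7, 50.7 and 53.3 CPM against 51.6 and 39.4 CPM, where the groups overlapped and the difference of 0.41 did not pass (adjusted p = 0.108), while it did with TMM factors (0.92, adjusted p = 0.00116) and with a term for replicate 1 against the others (0.49, adjusted p = 0.00374). The highest of the list were Zfpm1 (2.00), the GATA cofactor FOG1, Cbfa2t3 (1.89), a corepressor of the ETO family, Nfe2 (1.83), a platelet and red cell factor, and Ldb1 (1.80), the adaptor that joins Gata and Lmo2 complexes. The windows of Hoxa10 (-2.68, with the starts of Hoxa11 and Hoxa11os within 5 kb), Hoxa9 (-2.58), Erg (-2.46) and Lhx2 (-0.73) were lower, and with the libraries scaled to the receptor windows Lhx2 was higher (1.83), while Hoxa10 (-0.11), Hoxa9 (0.03) and Erg (0.12) did not pass on either side. Lhx2 also did not pass without IgG replicate 1 (-0.55) or with TMM (-0.22). Hoxa9 held 7.78, 3.37 and 4.07 CPM in H3K4me1 against 29.8 and 32.8 CPM. Erg, an ETS factor of stem cells and endothelium, has several start sites and the table gives 1 window for it.

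**Figure D2:**
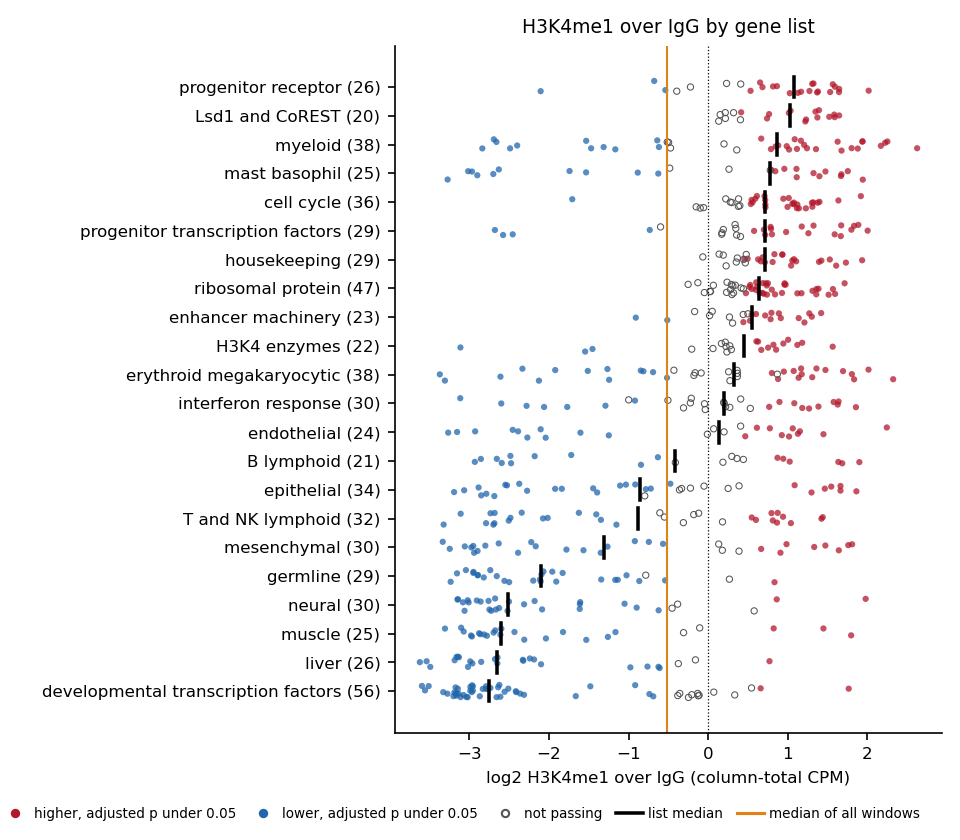
Log2 of H3K4me1 over IgG (horizontal axis) of every tested member of 22 gene lists (rows, number of members in brackets). Filled points passed edgeR's test, open points did not, black bars are list medians and the orange line is the median of all windows at -0.52. Progenitor receptors, Lsd1 and CoREST genes, myeloid genes, progenitor factors and genes of general function stand on the right, and lists of other organs on the left; with libraries scaled to the receptor windows all points move right by about 2.60, and the medians of the developmental factors, liver and muscle genes alone stay under 0.

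Receptors of growth factors and adhesion molecules of progenitors gave the highest list median, 1.08, or 1.60 above all windows, with 19 of 26 higher and 3 lower. Over all windows 27% were higher and 48.5% lower. Kit, the receptor of stem cell factor on which the line depends, held 86.8, 70.9 and 69.8 CPM in H3K4me1 and 56.9 and 37.2 CPM in IgG. All 3 H3K4me1 values stood above both IgG values, by a log2 of 0.68 (SE 0.21, adjusted p = 0.0105), less than most members of its list. Without IgG replicate 2 the difference at Kit did not pass (0.42, adjusted p = 0.107), nor did that of Csf2ra (-0.38). Csf2ra also missed without H3K4me1 replicate 2 (-0.48), and Il6st missed without H3K4me1 replicate 2 or 3 or either IgG library (-0.73 to -0.56). Spn, the sialoglycoprotein CD43, held 159 to 163 CPM against 45.3 and 33.9 CPM (log2 2.02). Csf2rb, the shared chain of the IL-3, IL-5 and GM-CSF receptors, was at 1.65, Il6ra, the IL-6 receptor chain, at 1.64 and Cd48, a SLAM-family ligand, at 1.59. Tek, the angiopoietin receptor, was lower with 16.8, 4.95 and 8.14 CPM against 39.0 and 49.0 CPM, and so were Il6st (-0.68) and Csf2ra (-0.54), of which Il6st and Csf2ra were higher when scaled to the receptor windows and Tek did not pass (0.50). With TMM Il6st (-0.16) and Csf2ra (-0.02) did not pass.

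Genes of blood lineages that lie downstream of the progenitor were split between the high and the low class. Of 38 myeloid genes 22 were higher and 11 lower (median 0.86), of 25 mast cell and basophil genes 12 and 10 (median 0.78), and of 38 erythroid and megakaryocytic genes 15 and 13 (median 0.32). Over all windows 27% were higher and 48.5% lower. Mpo, the peroxidase of the primary neutrophil granule, held 223.9, 183.3 and 188.4 CPM against 53.4 and 29.5 CPM (log2 2.25, SE 0.27, adjusted p = 2.4e-05). Tyrobp, the signalling adaptor DAP12, was at 2.22 and Ncf1, a subunit of the phagocyte oxidase, at 2.17. Other myeloid genes were lower than IgG. S100a8, a calcium-binding protein of neutrophils and monocytes, held 5.87, 4.55 and 2.77 CPM against 28.0 and 30.2 CPM, S100a9 stood at -2.66 and Ctsg, the granule protease cathepsin G, at -2.84. Klf4 was also low, at -2.49, with 12.1 CPM in H3K4me1 replicate 1 and 1.98 and 3.15 CPM in replicates 2 and 3, and with the receptor scaling it did not pass (0.01). S100a8, S100a9 and Ctsg did not pass with that scaling either. Without IgG replicate 1 Klf4 did not pass (-2.05, adjusted p = 0.0675).

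In the mast cell list, Fcer1g, the gamma chain of the IgE receptor, held 234.8, 201.5 and 205.0 CPM against 63.8 and 47.2 CPM (log2 1.94), while Fcer1a, the alpha chain, held 7.66, 7.92 and 7.03 CPM against 42.0 and 76.6 CPM (log2 -2.97). Both chains belong to 1 receptor, and their H3K4me1 windows stood at opposite ends. Srgn, the granule proteoglycan serglycin (1.75), Ltc4s, the leukotriene C4 synthase (1.67), and Alox5, the 5-lipoxygenase before it (1.67), were higher. The protease Mcpt4 (-3.27) and the receptors Mrgprb1 (-3.02) and Mrgprb2 (-2.90) were lower. In the platelet lineage, Gp9 held 146.4, 142.3 and 135.4 CPM against 34.3 and 21.7 CPM (log2 2.32) and Gp1ba, its partner in the von Willebrand factor receptor, was at 2.01, with Treml1, a platelet granule receptor, at 1.80. Gp6, the collagen receptor (-2.33), Thbs1 (-3.37), the red cell ankyrin Ank1 (-3.31) and the carbonic anhydrase Car1 (-2.61) were lower. With the receptor scaling none of these 4 passed on either side (0.30, -0.75, -0.74 and 0.04), nor did Fcer1a, Mcpt4, Mrgprb1 and Mrgprb2.

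The lymphoid lists stood close to or under the general level. B lymphoid genes had a median of -0.41 with 6 of 21 higher and 10 lower (28.6% and 47.6%). T and NK genes had a median of -0.88 with 10 of 32 higher and 16 lower (31.2% and 50%). These shares were near those of all windows, 27% and 48.5%. With the receptor scaling both list medians were above 0, at 2.17 and 1.75. Igll1 (1.90), the surrogate light chain, held 120.7, 106.7 and 110.3 CPM against 31.9 and 28.4 CPM, and Rag2 (1.68), a recombinase subunit whose window has the start of Iftap within 5 kb, and Cd72 (1.63) were also higher. Ms4a1, which encodes CD20 (-2.93), Il7r (-2.86) and Ebf1 (-2.66) were lower. Of T cell genes, Lat (1.42) and Gata3 (1.04) were higher, and Lef1 (-3.32), Themis (-3.11), Gzma (-2.79) and Cd8b1 (-2.74) were lower.

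Lists of other organs stood in the low class, where 27% of all windows were higher and 48.5% lower than IgG. The medians were -2.75 for 56 developmental transcription factors, -2.65 for liver, -2.60 for muscle, -2.51 for neural and -2.11 for germline genes, and between 1 and 3 members of each list were higher. With the receptor scaling these medians came to lie between -0.17 and 0.51. Sox2, the pluripotency and neural factor, held 2.04, 2.57 and 3.15 CPM in H3K4me1 against 23.5 and 22.1 CPM, and Hand2, a heart and limb factor, 5.36, 2.97 and 2.59 CPM against 51.6 and 39.4 CPM. Each library of H3K4me1 stood below both of IgG there. Dlx1 was the exception among the developmental factors, with 120.8, 139.2 and 146.9 CPM against 42.0 and 37.6 CPM (log2 1.77), and Pax2 followed at 0.66, which did not pass without IgG replicate 2 (0.43). Epithelial genes (median -0.86, 7 of 34 higher, 20 lower) and mesenchymal genes (median -1.31, 8 of 30 higher, 19 lower), the classes that Snai1 is known to turn off and on in epithelial cells, were mixed, and the medians were above 0 with the receptor scaling. Jup, the plakoglobin of cell junctions (1.86), Cldn4, a tight-junction claudin (1.66), and Muc1 (1.55) were higher, and Cldn1 (-3.07), Krt19 (-2.88) and Krt14 (-2.85) were lower. Mmp9, a matrix protease (1.47), and S100a4 (1.76), whose window may share reads with S100a3 and S100a5, were higher, and Dcn (-3.33), Col5a1 (-3.25) and Fn1 (-2.98) were lower. Endothelial genes were split, with 10 of 24 higher, among them Egfl7 at 2.24, and 10 lower, among them Stab2 at -3.27.

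Of the genes that write, erase or read the mark, the lists differed in how many stood above IgG, where 27% of all windows were higher and 48.5% lower. Of 20 genes of Lsd1, CoREST and their partners 14 were higher and none was lower, with a median of 1.03, the second highest of the lists. Chd4 (1.65) of the NuRD complex, Gfi1b (1.59) and Rcor2 (1.58), a CoREST scaffold, led it. Of 22 H3K4 enzymes and complex members 11 were higher, 3 lower and 8 did not pass (median 0.45), and of 23 genes of Mediator, cohesin and other enhancer factors 14 were higher and 2 lower (median 0.55). Kmt2d held 92.1, 75.2 and 84.0 CPM against 48.6 and 38.3 CPM (log2 0.94, SE 0.18, adjusted p = 0.000571). Kmt2c held 35.9, 49.5 and 50.7 CPM against 43.8 and 36.5 CPM, where the libraries overlapped (log2 0.17, adjusted p = 0.456). Kdm1a was alike in that its libraries overlapped, with 39.2, 46.7 and 48.9 CPM against 42.0 and 35.0 CPM (log2 0.21, adjusted p = 0.286). The window of Snai1 held 76.3, 79.4 and 76.6 CPM against 78.4 and 62.6 CPM (log2 0.13, adjusted p = 0.48). With TMM factors Kmt2c, Kdm1a and Snai1 were higher than IgG, by 0.69, 0.74 and 0.65 on the log2 scale. Setd1b (1.56), Men1 (1.18) and Setd7 (1.12) were the highest enzymes or partners, and Kdm5d, on the Y chromosome (-3.11), Ncoa6 (-1.55) and Dpy30 (-1.45) the lowest, of which Ncoa6 and Dpy30 were higher with the receptor scaling and Kdm5d did not pass. Ncoa6 did not pass without IgG replicate 2 (-0.95). The Mediator genes Med23 (-0.91) and Ccnc (-0.51) were lower; both were higher with the receptor scaling, and with TMM neither passed (-0.39 and 0.01). Ccnc did not pass without any 1 of H3K4me1 replicates 2 and 3 and the IgG libraries (-0.54 to -0.51).

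Among genes that every cell or every dividing cell uses, more were higher than IgG than lower, where 27% and 48.5% of all windows were. Of 29 housekeeping genes 20 were higher and none lower (median 0.71, range -0.07 to 1.93), of 47 ribosomal protein genes 31 and none (median 0.64, range -0.25 to 1.71), and of 36 cell cycle genes 26 and 1 (median 0.72). The other 9, 16 and 9 did not pass. Actb was at 1.73, Polr2a at 1.93 and Ccnd3 at 1.92, the last with the start of Taf8 within 5 kb. The lower cell cycle gene was Cdkn2b (-1.71), an inhibitor of Cdk4 and Cdk6, with 8.93, 12.5 and 16.6 CPM against 37.2 and 45.3 CPM, and it was higher with the receptor scaling (0.92). Interferon response genes were split, with 10 of 30 higher, led by Oas3 (1.86), Usp18 (1.64), Rsad2 (1.63) and Irf1 (1.58), and 7 lower, with Ifi44 at -3.11.

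H3K4me2 from the same cells gave a comparison without IgG, with libraries of 17553273, 9828505 and 10157832 reads. By the same test, 11024 windows (41.1%) were higher in H3K4me1 and 6164 (23%) lower, 29.9% and 2.9% by a log2 of at least 1, and the median log2 was 0.54 over all windows and 0.70 over the receptor windows. With the libraries scaled to the receptor windows, 3870 (14.4%) were higher and 11329 (42.2%) lower, and the median of all windows moved by -0.95. With TMM factors 33.2% were higher and 29% lower. Mast cell and basophil genes stood at a median of 1.35, myeloid genes at 1.31, and erythroid and megakaryocytic genes at 1.21, above the receptor windows. So did lists of other cells, with T and NK genes at 1.44, endothelial genes at 1.34, epithelial genes at 1.28, germline genes at 1.24, B lymphoid genes at 1.21, and neural and muscle genes at 1.19. In each of these other lists the median level of both marks was under IgG. Neural genes held 6.28 CPM in H3K4me1 and 3.42 CPM in H3K4me2 against 39.8 CPM in IgG. Muscle genes held 7.3 and 3.31 against 38.8 CPM, and endothelial genes 41.5 and 9.86 against 42.6 CPM. Whether ratios between levels far under IgG differ from background was not tested. In the mast cell, myeloid and erythroid lists H3K4me1 was above IgG. Ribosomal protein genes (-0.59), H3K4 enzymes (-0.55), enhancer factors (-0.51), progenitor transcription factors (-0.47) and cell cycle genes (-0.40) stood under the receptor windows. Of 47 ribosomal protein genes 38 were lower in H3K4me1 than in H3K4me2 and 2 higher, whereas of 38 myeloid genes 31 were higher and 2 lower. Scaled to the receptor windows, all 47 ribosomal protein genes were lower, and of the myeloid genes 13 were higher and 11 lower, with a median of 0.36.

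Among the progenitor's own genes, 16 of 26 receptors were higher in H3K4me1 than in H3K4me2 and 5 lower (median 0.55), while 6 of 29 transcription factors were higher and 16 lower (median -0.47). Scaled to the receptor windows both medians were under 0, at -0.41 and -1.44, with 11 receptors and 24 transcription factors lower. Bcl11a, a repressor of fetal globin, held 101.8, 70.3 and 67.3 CPM in H3K4me1 and 290.5, 269.1 and 264.6 CPM in H3K4me2 (log2 -1.78, SE 0.16, adjusted p = 2.5e-05). Kit (-1.09) and Kmt2c (-1.29) were also lower in H3K4me1, as was Gata2 (-0.47). Gfi1 was the reverse, with a log2 of 1.79 and 20.2, 17 and 15 CPM in H3K4me2, under both of its IgG values. The windows with the largest excess of H3K4me1 were Ptgds (3.63), Mrvi1 (3.55), Tmem86b (3.54), Dmpk (3.36), Cldn10 (3.30), Tnni2 (3.21), Grifin (3.19) and Kcnn1 (3.17). Ptgds, a prostaglandin D2 synthase, held 122.5, 130.1 and 133.2 CPM in H3K4me1, 10.8, 9.46 and 10.7 CPM in H3K4me2 and 40.5 and 31.7 CPM in IgG. H3K4me1 stood above and H3K4me2 below IgG in every library there. Tnni2, a troponin of fast muscle, followed the same order with 77.8, 90.7 and 95.8 CPM, 10.5, 9.36 and 8.47 CPM and 37.2 and 26.9 CPM. H3K4me1 above IgG by a log2 of at least 1 was a condition of this ranking, so that part of the order is no result. The windows with the largest excess of H3K4me2 were Tsc22d2 (-1.87), Tgif1 (-1.82), Sox4 (-1.81), Bcl11a, Hmga2 (-1.77), Msl2 (-1.77), Arrdc3 (-1.75) and Mtln (-1.71). Hmga2, a chromatin protein of proliferating cells, held 54.9, 61.6 and 59.0 CPM in H3K4me1 and 199.9, 199.8 and 197.3 CPM in H3K4me2.

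**Figure D3:**
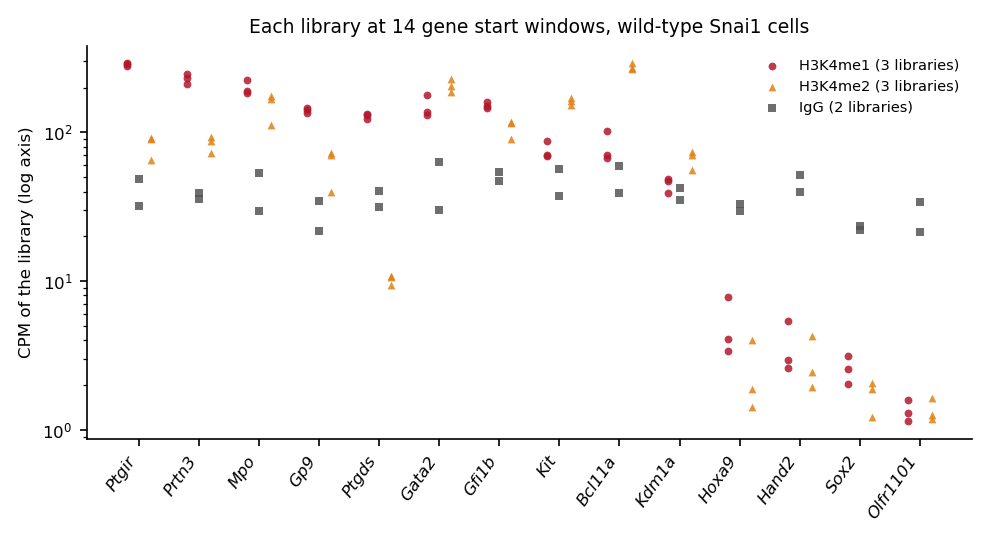
CPM of each library (vertical log axis) at 14 gene start windows (horizontal axis) for H3K4me1 (red circles, 3 libraries), IgG (grey squares, 2) and H3K4me2 (orange triangles, 3). The first 5 windows have H3K4me1 above IgG in each library, H3K4me2 passes H3K4me1 at Gata2, Kit, Bcl11a and Kdm1a, and the last 4 have both marks under IgG.

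Over all windows higher than IgG by a log2 of at least 1, 1406 of 3025 (46.5%) had more H3K4me1 than H3K4me2, 532 (17.6%) had less and 1087 (35.9%) did not pass. The first class had median levels of 118.1 CPM in H3K4me1 and 63.3 CPM in H3K4me2, and the second 91.6 and 129.4 CPM, while their IgG medians were 42.7 and 40.5 CPM. Over all windows tested 41.1% had more H3K4me1 and 23% had less. Of the 11904 windows lower than IgG by a log2 of at least 1, 6625 (55.7%) had more H3K4me1 and 76 (0.638%) had less. The median levels of these 6625 were 6.58 CPM in H3K4me1, 2.79 CPM in H3K4me2 and 37.6 CPM in IgG.

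The promoter sequence went with both marks. Of the windows tested, 18358 matched a gene in the RefSeq promoter table and 15543 had exactly 1 promoter there, whose 300 bases (250 before and 50 after the start) were used. The median log2 of H3K4me1 over IgG rose from -3.04 in 847 genes without a CpG to -1.11 in 1882 genes with 6 to 10 CpG and 0.42 in 2003 genes with 31 to 65 CpG. IgG also differed along that range, but less: its median went from 19.7 to 42.9 CPM in replicate 1 and from 30.2 to 40.5 CPM in replicate 2, against 3.19 to 53.3, 2.57 to 57.4 and 3.33 to 56.1 CPM in H3K4me1. The part of base composition in the log2 ratio was not tested. Receptor windows made up 46.2% of the genes without a CpG. This is a description across genes, which are not independent replicates.

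**Figure D4:**
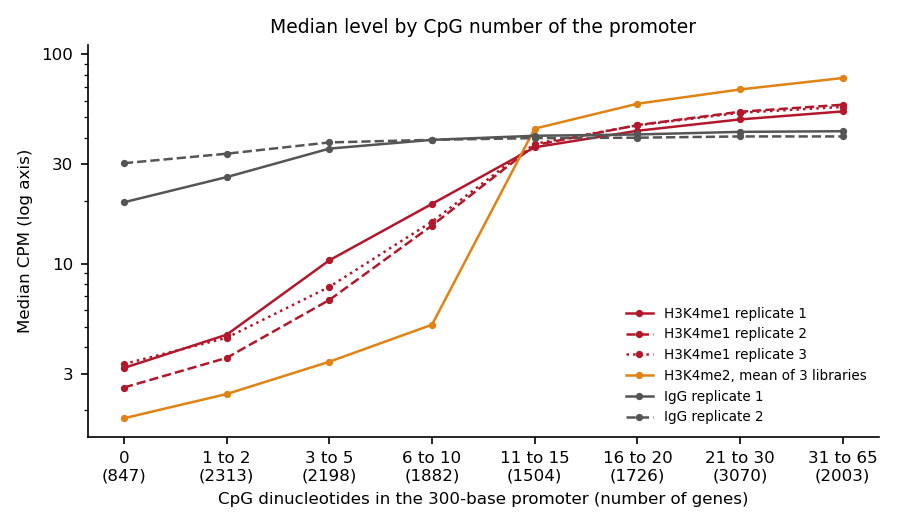
Median CPM (vertical log axis) of genes grouped by the number of CpG in their 300-base promoter (horizontal axis, number of genes in brackets), for the 3 H3K4me1 libraries (red), the mean of the 3 H3K4me2 libraries (orange) and the 2 IgG libraries (grey). H3K4me1 climbs step by step and crosses IgG at 11 to 20 CpG, H3K4me2 jumps between 6 to 10 and 11 to 15 CpG, and IgG changes least.

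The marks parted by CpG number. In genes with 6 to 10 CpG the median level was 15.2 to 19.3 CPM in H3K4me1 and 5.13 CPM in H3K4me2, and in genes with 11 to 15 CpG it was 36 to 37.4 and 44.2 CPM. The median log2 of H3K4me1 over H3K4me2 was 1.08 at 3 to 5 CpG and -0.29 at 31 to 65 CpG. Among genes higher than IgG by a log2 of at least 1, those with more H3K4me1 than H3K4me2 (760) had a median of 11 CpG, and those with less (324) one of 23. In the first class 28% had 5 CpG or fewer, in the second 4.32%, and among all 15543 genes 34.5%. The printed promoters of Prtn3, Mpo, Gp9 and Ptgds, with 4, 2, 3 and 2 CpG in the 300 bases, differ in this from that of Zfpm1, with 37. Promoters so poor in CpG were a minority among the high windows. Of 1719 genes higher than IgG by a log2 of at least 1, 267 (15.5%) had 5 CpG or fewer. Their median was 20 CpG, against 4 in genes lower by as much. A high CpG number did not always go with the mark. Of 2003 genes with 31 to 65 CpG, 18.5% were lower than IgG by a log2 of at least 1. At Klf4, with 40 CpG, all 3 H3K4me1 libraries stood under both IgG libraries, but with the receptor scaling it did not pass (0.01). The same order held at Hand2, whose 17 CpG are nearer to the median of 12 over all promoters.

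Short motifs were counted in the same 300 bases on both strands. AGATAA, the letters of a GATA site, which read TTATCT on the other strand, was in 7.27% of 1719 promoters whose window was higher by a log2 of at least 1, in 14.4% of 6715 lower by as much, and in 10.1% of all 15543. CAGGTG, the E-box that Snai1 binds, which reads CACCTG on the other strand, was in 16.5%, 21.8% and 19.6%. The median GC contents of these promoters were 61, 48.7 and 55.7%, and the part of base composition in the shares was not tested. A match is no site and a promoter without one is not shown to lack binding elsewhere.

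The deposited Snai1 peaks gave a readout apart from the histone libraries. The authors' list for wild-type Snai1 holds 2929 peaks, and 1965 of 25046 genes with coordinates had one within 5 kb of either end. Of these genes 1240 (63.1%) were higher in H3K4me1 than in IgG and 624 (31.8%) by a log2 of at least 1, where 27% and 11.3% of all windows were. Their median was 0.66, or 1.18 above all windows, against -0.75 for the other genes, at median IgG levels of 45.6 and 40.5 CPM. H3K4me1 was lower than H3K4me2 in 842 and higher in 531 of them, with a median of -0.21. Genes near 1 of the 137 peaks called in empty-vector cells, where no Snai1 was added, had a median of 0.85 (124 genes). The median CpG number was 21 in promoters with such a peak nearby and 11 in the others. The E-box letters CAGGTG were in 24.8% of the 1252 promoters near a wild-type peak and in 19.1% of the others.

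Kit had a peak at chr5:75574328-75574822 with a summit 392 bases before its start and a 10.2-fold enrichment in the authors' deposited list. Cbfa2t3 had 3 peaks within 5 kb of its start, the strongest at 14.5-fold, and Csk had 1 of 12-fold in its gene, 2487 bases after the start. Gp9 had one of 9.37-fold 446 bases before the start. All 4 genes had H3K4me1 above IgG in every library. Cbfa2t3, Csk and Gp9 were named for their high ratio, so this is no result about the peaks. Other named genes with a peak were not high. Ccnc (6.34-fold, 732 bases before the start) was lower than IgG, at -0.51, and Mtln (7.8-fold, 34 bases after the start) stood at 0.09. At Erg a peak of 7.23-fold lay 188 bases before 1 of its annotated starts, where the counted window was among the low ones. Of all genes with coordinates 7.85% had a peak within 5 kb of either gene end. By that rule H3K4 enzymes had the most members near a peak among the lists, 9 of 22, and progenitor receptors had 8 of 26. Lsd1 and CoREST genes had 0 of 20, endothelial genes 0 of 24 and muscle genes 0 of 25. Lists of that size would hold few such genes at the general share of 7.85%. The rule does not count Erg, nor Gse1, which had a peak of 5.81-fold 1948 bases after an annotated start.

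Chromosomes differed in IgG as well as in H3K4me1. Windows of chromosome 1 had median IgG levels 1.46 times the autosomal median in both IgG libraries, and 1.44, 1.45 and 1.43 times in the 3 H3K4me1 libraries. On chromosome 8 the IgG libraries stood at 1.49 and 1.15 times and H3K4me1 at 1.83, 1.31 and 1.30 times, and on chromosome 17 at 1.44 and 1.22 times and 1.72, 1.90 and 1.86 times. The other 16 autosomes lay between 0.856 and 1.09 in IgG replicate 1 and between 0.868 and 1.09 in replicate 2. The medians of the ratio on chromosomes 1, 8 and 17 (-0.37, -0.22 and 0.04) were within the wide range of the other autosomes, from -1.04 to 0.16. On chromosome 17 H3K4me1 stood further above the autosomal median than IgG did. The cause of these levels was not tested. On chromosome 8, replicate 1 was the higher one in both kinds of library. Zfpm1 there held 366.6, 221.1 and 196.1 CPM against 83.2 and 46.8 CPM, and its log2 was 2.14 within replicate 1 and 2.15 with H3K4me1 replicates 2 and 3 against IgG replicate 2. The X chromosome had IgG at 0.417 and 0.481 times the autosomal median and H3K4me1 at 0.106 to 0.135 times. Its median log2 was -2.35, and 61% of its 1145 windows were lower by a log2 of at least 1, where 44.4% of all windows were.

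**Figure D5:**
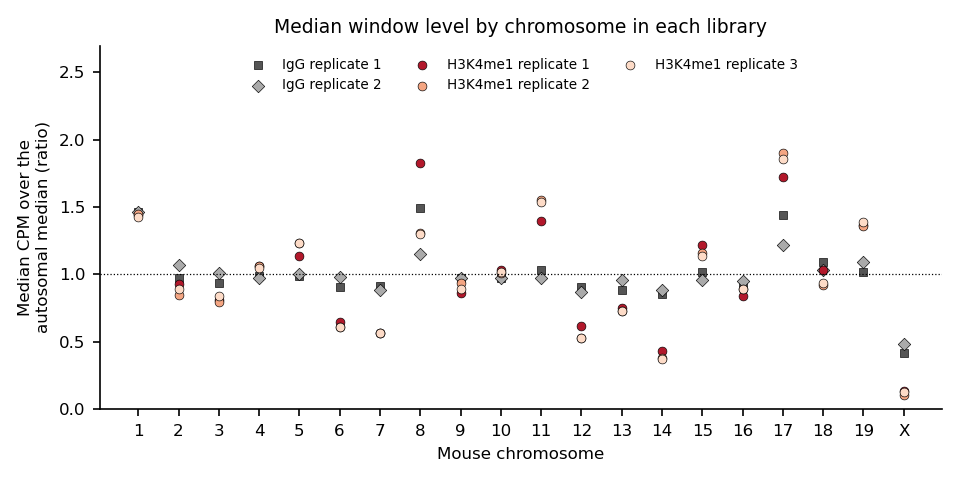
Median CPM of the windows of each chromosome divided by the median of all autosomal windows (vertical axis, ratio) for each of the 5 libraries (symbols), by mouse autosome and X (horizontal axis). On the chromosomes drawn, IgG stays between 0.856 and 1.09 except on chromosomes 1, 8 and 17, which stand higher, and X, which stands near 0.4 to 0.5; H3K4me1 spreads more widely and follows IgG on chromosome 1.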

How the data were processed

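Chromatin immunoprecipitates of HPC7 cells with wild-type Snai1 were sequenced by the authors, who deposited whole-number read counts per gene start window. Per the labels' protocols, chromatin was fixed with formaldehyde, sonicated and precleared with rabbit IgG. Per the submitters' processing notes, Subread, featureCounts and MACS2 were used on GRCm38 and mm10; versions, strand and the treatment of reads with several matches are not given in the sources used here. The deposited Snai1 peak lists give, per peak, the authors' fold enrichment, score and -log10 q; whether replicates were pooled is not stated.

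Of 27095 windows, 25204 (93%) matched a symbol through the RefSeq table on GRCm38.p6; rows equal to an earlier one (50) were dropped. Counts were divided by column totals and compared with edgeR 4.0.16 (quasi-likelihood F-test, R 4.3.3, Benjamini-Hochberg adjusted p under 0.05 over 26827 windows), with 5 libraries against IgG and 6 against H3K4me2. On simulated counts, the test against IgG recovered 44% of changes of log2 1 and 96% of log2 2, and called 0.0338% of unchanged windows. Only 100 windows changed at each size there, with a common dispersion and the library totals as the true scale. No simulated library differed more than the others, and far fewer windows changed than were called here. These rates therefore need not hold for the real libraries. An exact permutation test of 3 against 2 libraries cannot go below p = 0.1. Alternatives used TMM, receptor-window scaling, DESeq2 1.42.0, other filters, a replicate block and left-out libraries. Same-numbered H3K4me1 and H3K4me2 libraries deviated together (correlations 0.565, 0.302 and 0.234). Replicates 2 and 3 of unlike number did so too (0.261 and 0.124), while replicate 1 went against the others (-0.447 to -0.283). Pairs by number can therefore not be told apart from a split of replicate 1 against the rest. The values against H3K4me2 are from the fit without the block, with 17188 calls, so their SE and adjusted p use no pairing. With the block there were 20548 calls, and with replicates 2 and 3 summed 12476.

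The members and the lists were chosen with earlier results of these data known. Named are 8 genes of interest, the 12 windows per direction with the largest difference from IgG (passing, not overlapping, mean IgG count of at least 20, no predicted gene, microRNA or snoRNA), up to 4 members per list and direction, and the 8 windows per direction with the largest difference from H3K4me2, where the higher mark stood above IgG by a log2 of at least 1. Peaks within 5 kb of either annotated end of a gene were assigned to it for the counts, while peaks of named genes are given by their distance from annotated starts. A few named genes are not reported here. Counting depth limits precision for windows of few reads. Figures were drawn with matplotlib 3.10.9.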

Additional observations from a re-analysis of the deposited data

How the results depend on the processing

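Against IgG, the number of windows called stayed between 17031 and 22779 over the alternatives run, whereas their direction followed the scaling. With TMM, 11264 windows were higher, 7021 of them by a log2 of at least 1, and with DESeq2 6729 were higher by as much. With the libraries scaled to the receptor windows, 16268 were higher and 763 lower, 15959 and 171 by a log2 of at least 1. Against H3K4me2, TMM gave 1888 windows lower by a log2 of at least 1, and DESeq2 gave 6230 higher, 4898 by a log2 of at least 1, and 3609 lower by as much. Receptor-window scaling gave 3870 higher and 11329 lower there, 2387 and 8715 by a log2 of at least 1. By its construction a scaling moves all windows together. Without 1 library at a time, 17369 to 21892 windows were called against IgG and 13698 to 17463 against H3K4me2.

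The distance of a list's median from that of all windows kept its sign in every list but B lymphoid genes. That list's 0.11 became -0.0090 with a mean IgG count of at least 20, -0.0033 with replicates 2 and 3 summed, and -0.13 to 0.39 without 1 library, including -0.044 without H3K4me1 replicate 2. The mast cell list moved from 1.30 to 1.08 with replicates 2 and 3 summed, 0.90 with the replicate block and 0.96 with the batch term, and lay between 1.01 and 1.36 without 1 library. T and NK genes moved from -0.36 to -0.48 with the higher count minimum, -0.51 with the replicate block and -0.49 with the batch term, and lay between -0.47 and -0.21 without 1 library. Erythroid and megakaryocytic genes were at 0.72 with the higher minimum and between 0.60 and 0.96 without 1 library. The ranges without 1 library were -1.29 to -0.59 for mesenchymal genes, 0.92 to 1.25 for H3K4 enzymes and 1.28 to 1.44 for cell cycle genes. The cause of these moves was not tested.

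Scaling to the receptor windows turned the sign of Hoxa9 (0.025), Erg (0.12), Lhx2 (1.83), Tek (0.50), Il6st (1.91), Csf2ra (2.09), Klf4 (0.010), Car1 (0.035), Gp6 (0.30), Ncoa6 (1.17), Dpy30 (1.18), Med23 (1.71), Ccnc (2.10) and Cdkn2b (0.92), and TMM that of Ccnc (0.0090). Of these 14 genes, 6 did not pass on the other side (Hoxa9, Erg, Tek, Klf4, Car1 and Gp6). A further 26 of 135 named genes lost their call as lower with that scaling, among them Fcer1a (-0.27), S100a8 (-0.08), Ctsg (-0.20), Sox2 (-0.56), Col5a1 (-0.69) and Il7r (-0.19). With TMM 4 lost it (Lhx2, Il6st, Csf2ra and Med23), and with DESeq2 these 4 and Ccnc.

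H3K4me1 and IgG share only replicate numbers 1 and 2, and their deviations had a correlation of 0.039 (0.163 with H3K4me1 replicate 3 in place of 2), so the numbers were not taken as pairs. With the replicate block 19552 windows were called against IgG in place of 20243, and Gfi1 passed (0.47, adjusted p = 0.0343, edgeR). The IgG libraries are 2 and differ from each other beyond counting error, which limits every ratio given here.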
